A study of Mus musculus with 6 samples.

Results

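The lambda light chain locus Igl and the surrogate light chain genes Igll1, Vpreb1 and Vpreb2 lie on mouse chromosome 16, and open chromatin was described here in 3 windows around them. The windows, in mm9, were chr16:18980000-19280000 for Igl (300 kb), chr16:16840000-16890000 for the neighbours Igll1 and Vpreb1 (50 kb) and chr16:17960000-18000000 for Vpreb2 (40 kb). Peaks of all libraries were merged into regions wherever they overlapped by at least 1 bp. The windows held 40 of the 149724 regions of the genome: 20 in the Igl window, 10 in the Igll1 and Vpreb1 window and 10 in the Vpreb2 window. No annotation of mm9 was used, so a region is named by its window and position and is not assigned to a gene, exon or promoter.

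Accessibility was measured by ATAC-seq, in which the transposase Tn5 inserts sequencing adapters into open DNA, in 3 pro-B cell lines from bone marrow of strain 129SV. None of the 3 lines was treated, and all are RAG2-deficient, so they lack the recombinase that joins immunoglobulin gene segments. WT is a line with wild-type IgH (heavy chain) alleles, while in CBE_1 and CBE_2 IGCR1, a CTCF-binding control region of the IgH locus, is mutated on the IgH alleles. Each line has 2 libraries, made from 200000 cells with 11 cycles of PCR and sequenced as single reads. As there is only 1 WT line, genotype and line cannot be told apart. The labels do not say that the 2 libraries of a line came from separate cultures, so p-values measure only the spread between these libraries, which may be technical.

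A B cell precursor that has made a heavy chain tests it before any light chain exists. Igll1 encodes λ5 and Vpreb1 and Vpreb2 encode VpreB proteins, which together form the surrogate light chain that pairs with the μ heavy chain in the pre-B cell receptor. These genes are characteristically active in pro-B and early pre-B cells and are silenced later. Igl holds the V, J and C segments of the lambda light chain, which in mice is used by a minority of B cells and is rearranged after the heavy chain.

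In the RefSeq gene order of another build, GRCm38.p6, Igll1 and Vpreb1 are direct neighbours, between Gm5768 and Top3b. Vpreb2 stands apart from them, between Gm41427 and Dgcr6. In Igl the C and J segments alternate with the V segments: Iglc1, Iglj1, Iglc3, Iglj3 and Iglv1 are followed by Iglc2, Iglj2, Iglv3 and Iglv2. RefSeq promoter sequences matched 3 of the genes, Igll1, Vpreb1 and Vpreb2. The 250 bases before the Igll1 start are shown because they carry the core motif of EBF1, a B lineage factor, in capitals.

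Igll1: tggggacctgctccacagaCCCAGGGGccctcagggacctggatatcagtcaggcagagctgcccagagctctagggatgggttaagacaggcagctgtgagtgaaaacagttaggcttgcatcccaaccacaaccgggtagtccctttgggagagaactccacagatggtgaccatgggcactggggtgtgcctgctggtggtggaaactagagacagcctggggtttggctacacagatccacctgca

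That core, CCCNNGGG searched on both strands, begins at position -231 relative to the Igll1 start and was found in 11.8% of 32851 mouse promoters of the same length. It was not in the windows of Vpreb1 and Vpreb2. The E-box CANNTG, the short form bound by E2A-type factors, occurred in all 3 promoters and in 66.2% of the promoters of the table. The ETS-type letters GGAA also occurred in all 3, and in 93.4% of the table. The Ikaros-type letters TGGGAA, of which GGAA is a part, occurred in Vpreb2 and in 21.6% of the table. STAT-type TTCNNNGAA, present in 7.02% of the table, was in none of the 3. A match describes letters only.

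Vpreb1 and Vpreb2 are near-identical copies, which matters for the mapping of reads to either gene. The stretch from position -106 to -1 before the Vpreb1 start recurs from position -250 to -145 before the Vpreb2 start, and both copies are shown with their differences in capitals.

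Vpreb1: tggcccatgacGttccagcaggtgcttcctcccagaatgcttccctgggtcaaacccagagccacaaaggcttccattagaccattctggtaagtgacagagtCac

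Vpreb2: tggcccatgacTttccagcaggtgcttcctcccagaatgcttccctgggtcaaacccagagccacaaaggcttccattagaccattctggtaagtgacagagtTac

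Of the 106 bases, 104 were identical (98.1%), and the differences were G12T and C104T, with the Vpreb1 base first and positions counted from 1 at the 5′ end of the stretch. The longest run without a difference was 91 bases. How the submitters treated reads that fit both genes is not given in the sources used here, so peaks in such copies are uncertain.

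Peak lists were longest for WT (112241 and 106056 peaks), shortest for CBE_1 (72318 and 80242) and between these for CBE_2 (94665 and 97522), and the read depth behind them is unknown. Windows around the B lineage genes Pax5 and Ebf1 held peaks in every list, with 12 to 19 regions at Pax5 and 27 to 39 at Ebf1. A window around the T cell genes Cd3e, Cd3d and Cd3g held 3 or 4 regions per list as well, so the presence of peaks did not separate the lineages. The best of these lay between the 87.8 and 91.0 percentile of its list, against 90.1 to 96.6 at Pax5 and 91.9 to 96.9 at Ebf1. These marker windows are approximate.

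The windows were crowded with peaks relative to their chromosome. The Igll1 and Vpreb1 window held 14 to 20 peaks per 100 kb and the Vpreb2 window 12.5 to 25, while the Igl window held 5.33 to 7 and chromosome 16 as a whole 2.60 to 4.19. All 6 libraries shared 24 of the 40 regions (60%), against 31.9% over the genome and 52.7% in a window around Igk, the kappa light chain locus. By window, 13 of 20 Igl regions, 7 of 10 Igll1 and Vpreb1 regions and 4 of 10 Vpreb2 regions were shared in this way. A further 7 regions were present in a single library, with folds of 2.58 to 3.08. The fold is the authors' enrichment of a peak over background and is used here to rank peaks within a list.

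The share of a list's peaks that lay in the Igl window was 0.0143% (95% Wilson interval 0.00878 to 0.0232) and 0.0160% (0.0100 to 0.0257) in WT. It was 0.0221% (0.0136 to 0.0359) and 0.0262% (0.0171 to 0.0400) for CBE_1, and 0.0169% (0.0104 to 0.0275) and 0.0164% (0.0101 to 0.0267) for CBE_2. Both CBE_1 libraries had the larger values, and the intervals overlapped between all libraries. The peak counts behind these shares were 16 and 17 for WT, 16 and 21 for CBE_1 and 16 and 16 for CBE_2. The CBE_1 lists are also the shortest. The Igll1 and Vpreb1 window held 0.00739% to 0.0125% and the Vpreb2 window 0.00691% to 0.00943% of a list, also with overlapping intervals. Such intervals cover counting error only.

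Of the 3 windows, that of Igll1 and Vpreb1 held the peak of highest rank in 6 of 6 libraries. Its best peak lay at the 99.5 and 99.3 percentile of its list in WT, at 96.0 and 98.1 in CBE_1 and at 98.0 and 99.0 in CBE_2. The best Vpreb2 peak lay between 94.3 and 95.6, and the best Igl peak between 89.9 and 96.2. Vpreb2 stood above Igl in 4 of 6 libraries, so those neighbours in the order were not separated.

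Ranks were then compared across lines over the 47767 regions present in all 6 libraries, of which 24 lie in the windows. Within each library the region's highest fold was turned into a percentile among these regions and then into a normal score, whose unit is 1 SD of a standard normal distribution. The scores were tested with limma, and a region was called at a Benjamini-Hochberg adjusted p below 0.05 over all 47767 regions. Over the genome, 20.7% of regions were called higher and 19.3% lower in CBE_1 than in WT, and 13.2% higher and 13.6% lower in CBE_2 than in WT. Both comparisons use the same WT libraries.

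Against that background the windows together held 10 of 24 calls in CBE_1, 6 higher and 4 lower, and 7 of 24 in CBE_2, 3 higher and 4 lower. These totals are near the genome's share. By window, the calls in the Igl window were mostly higher in the mutated lines, with 5 higher and 1 lower of 13 in CBE_1 and 3 higher and 0 lower in CBE_2. In the Igll1 and Vpreb1 window they were all lower, with 3 of 7 in each mutated line and 0 higher. These counts of 0 by limma were also 0 at an unadjusted p below 0.05. The 4 shared Vpreb2 regions gave 1 higher call in CBE_1 and 1 lower call in CBE_2, both of the same region. Without a trend in limma's variance prior, 5 of the CBE_1 calls, 1 of the CBE_2 calls and 2 of the 7 calls between the mutated lines were kept. Losses on leaving out a library are given with each region.

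**Figure D1:**
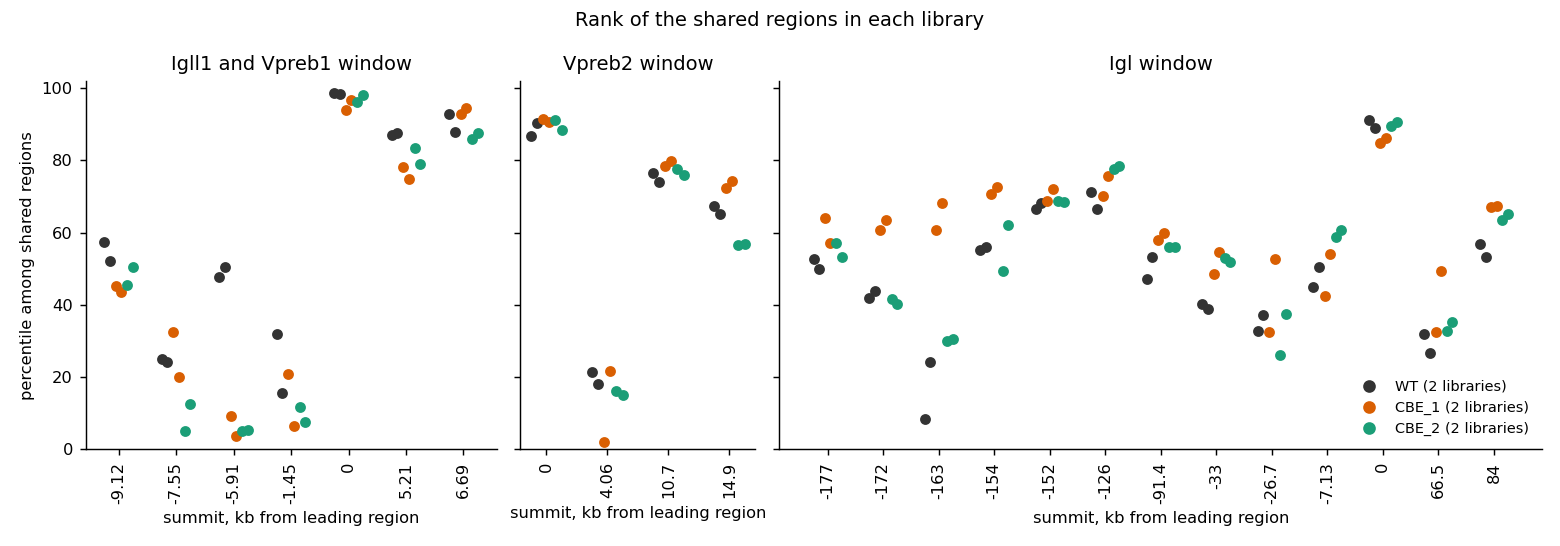
Percentile of each region present in all 6 libraries (vertical axis, 0 to 100 among the 47767 shared regions) in the Igll1 and Vpreb1, Vpreb2 and Igl windows, with 1 point per library coloured by line and regions named by the distance of their summit in kb from that of the window's leading region. In the Igll1 and Vpreb1 window the region at -5.91 kb has both WT points at 47.8 and 50.5 and the 4 mutated points below 10, and in the Igl window the region at -163 kb has the CBE_1 points highest.

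The leading region of the Igll1 and Vpreb1 window, chr16:16863420-16868319, was the broadest of all members, with 4464 to 4814 covered bases. Its summit positions lay within 48 bp of each other in the 6 libraries. The fold was 25.0 and 24.9 for WT, 28.4 and 23.8 for CBE_1 and 22.9 and 22.9 for CBE_2. Its percentile was 98.8 and 98.5 for WT, 94.0 and 96.8 for CBE_1 and 96.1 and 98.0 for CBE_2. Both WT libraries thus ranked it above the 4 mutated ones, although the highest fold was that of CBE_1 replicate 1. The score was lower in CBE_1 (-0.50 ± 0.14 SE, limma adjusted p = 0.010) and was not called in CBE_2 (-0.30 ± 0.14, limma adjusted p = 0.13). The CBE_1 call was lost without WT replicate 1 (or CBE_1 replicate 1) and with a variance prior that ignores the trend. This region was 1 continuous peak in both WT libraries and CBE_2 replicate 1 and was split into 2 peaks in the other 3 libraries.

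The sharpest difference lay 5.91 kb on the lower-coordinate side of that summit, at chr16:16857915-16859609. Its fold was 8.01 and 8.46 for WT, 3.32 and 2.92 for CBE_1, and 3.31 and 3.33 for CBE_2. In percentiles this was 47.8 and 50.5 for WT, 9.30 and 3.70 for CBE_1, and 5.02 and 5.44 for CBE_2. WT and mutated libraries did not overlap, and the 4 mutated libraries lay close together. The mutated folds were near those of the peaks found in a single library (2.58 to 3.08), so little room was left for spread among them. In percentile of the whole list the mutated libraries lay between 20.9 and 33.7, and both WT libraries at 76.0. The score difference from WT was -1.53 ± 0.26 (SE, limma adjusted p = 0.00048) in CBE_1 and -1.60 ± 0.26 (limma adjusted p = 0.00052) in CBE_2. Both calls were kept in all 12 alternative settings that held the region. The peak was also wider in WT, covering 1662 and 1673 bp against 777 and 552 for CBE_1 and 304 and 808 for CBE_2. The ratio of the mean widths was 2.73.

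Directly beside it, chr16:16859698-16861445 was the only WT-only region of this window: a peak of fold 4.00 and 4.28, 1693 and 1736 bp wide, occurred in each WT library but in no mutated library. In WT the peaks of the stretch from -6.3 to -1.1 kb followed each other with only short gaps, while every mutated library had a break there. The next region, chr16:16861503-16863147, had percentiles of 31.9 and 15.8 for WT, 20.8 and 6.55 for CBE_1 and 11.8 and 7.61 for CBE_2. These overlapped between WT and CBE_1, and the differences of -0.42 and -0.57 were not called (limma adjusted p = 0.29 and 0.19). Its width nevertheless separated WT from the mutated libraries, with 1645 and 1515 bp in WT and 528 to 673 bp in the mutated libraries.

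**Figure D2:**
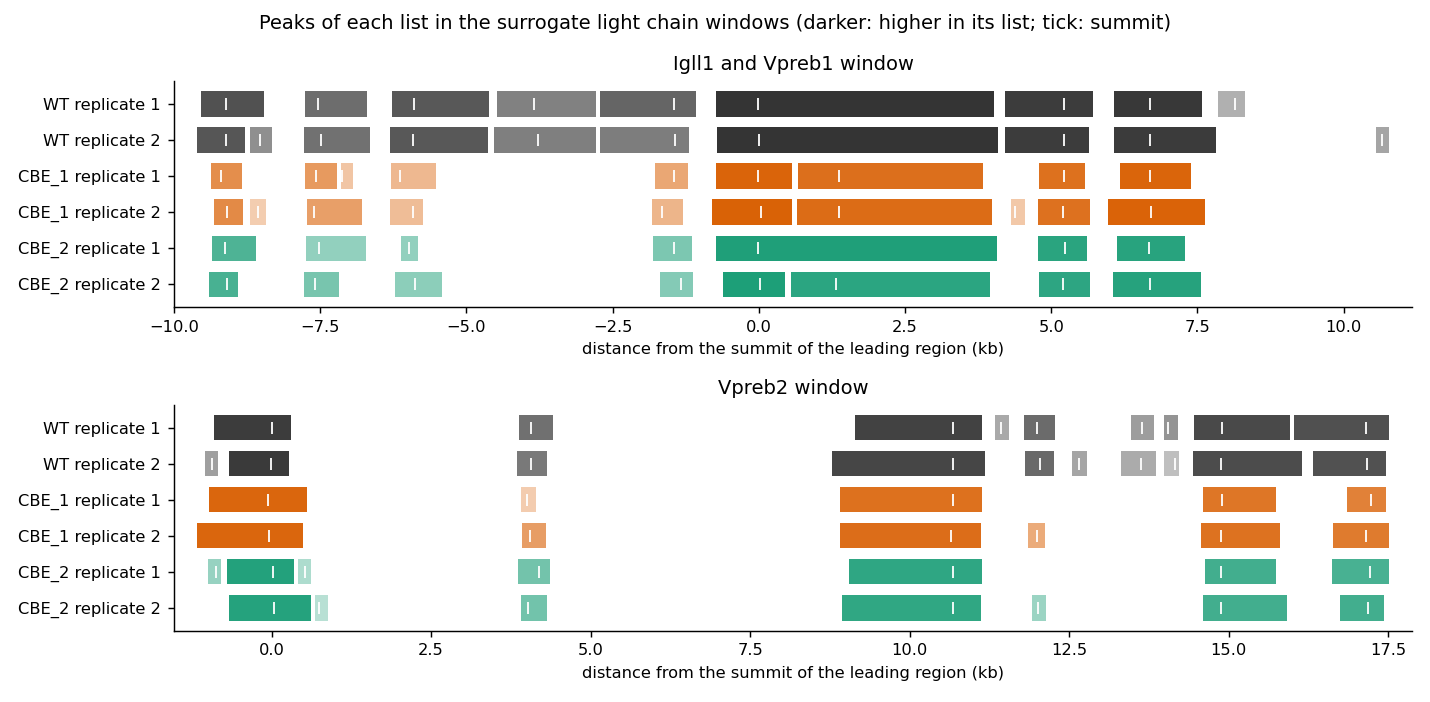
Peaks of each deposited list in the Igll1 and Vpreb1 window (upper) and the Vpreb2 window (lower), 1 line of bars per library, plotted by distance in kb from the summit of the window's leading region, with darker bars for peaks of higher percentile in their list and white ticks for summits. In WT the bars left of the leading region run on almost without a break and include a peak at -3.82 kb that the 4 mutated libraries lack.

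On the other side of the leading region, chr16:16868429-16869935 was ranked lower in both mutated lines. Its percentile was 87.1 and 87.7 for WT, 78.1 and 75.0 for CBE_1 and 83.5 and 79.0 for CBE_2, so that all 4 mutated libraries lay below both WT libraries. The score fell by 0.42 (SE 0.077, limma adjusted p = 0.00078) in CBE_1, a call kept in all 13 alternative settings. In CBE_2 it fell by 0.26 (SE 0.077, limma adjusted p = 0.025), a call lost without WT replicate 1, WT replicate 2 or CBE_2 replicate 2 and without the variance trend.

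The neighbouring region chr16:16870195-16872038 behaved differently between the mutated lines. Its fold was 20.7 and 18.9 for WT, 27.3 and 22.1 for CBE_1 and 17.9 and 17.4 for CBE_2, and its percentile 92.9 and 88.0, 92.8 and 94.5, and 86.0 and 87.7. Neither line was called against WT (0.21 ± 0.097 and -0.20 ± 0.097, limma adjusted p = 0.11 and 0.16). CBE_2 lay below CBE_1 (-0.41 ± 0.097, limma adjusted p = 0.0068), a call lost without CBE_2 replicate 1 or the variance trend. At the far end, chr16:16856441-16857574 had percentiles of 25.2 and 24.3 for WT, 32.4 and 20.1 for CBE_1 and 5.02 and 12.5 for CBE_2. It was lower in CBE_2 than in WT (-0.71 ± 0.25, limma adjusted p = 0.0498), which no longer passed the threshold in 7 of 12 alternatives, among them leaving out either WT or either CBE_2 library. The outermost region, chr16:16854626-16855903, had percentiles of 57.3 and 52.3 in WT and 43.5 to 50.6 in the mutated libraries, with no call. Single peaks at chr16:16872071-16872531 and chr16:16874768-16874992 were found in 1 WT library each.

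Counted over the 7 shared regions of the Igll1 and Vpreb1 window, 4 had a percentile below both WT libraries in all 4 mutated libraries and 0 had one above, where the genome's shares were 20.1% and 20.3%. The median score difference was -0.42 in CBE_1 and -0.30 in CBE_2, beside 0.01 and 0.00 over all shared regions.

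Peak width moved in the same direction. Peaks covered 15.3 and 15.5 kb of the Igll1 and Vpreb1 window in WT, 9.10 and 10.3 kb for CBE_1 and 9.59 and 9.31 kb for CBE_2, which is 30.8% of the window in WT and 19.4% and 18.9% in the mutated lines. The mutated libraries did not overlap WT, and the difference of the means was 5.83 kb. In 5 of the 7 shared regions both WT peaks were wider than all 4 mutated ones, and in 0 narrower. The WT lists covered more of the whole genome too, 80.1 and 75.4 Mb against 52.6 to 70.1 Mb, and 28.8% of all shared regions were wider in WT by the same count and 7.36% narrower. Per Mb of all covered bases, this window took 192 and 205 bases in WT, 173 and 173 for CBE_1 and 139 and 133 for CBE_2, so WT stayed highest after that scaling. The part of list length in the width difference was not tested beyond this.

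**Figure D3:**
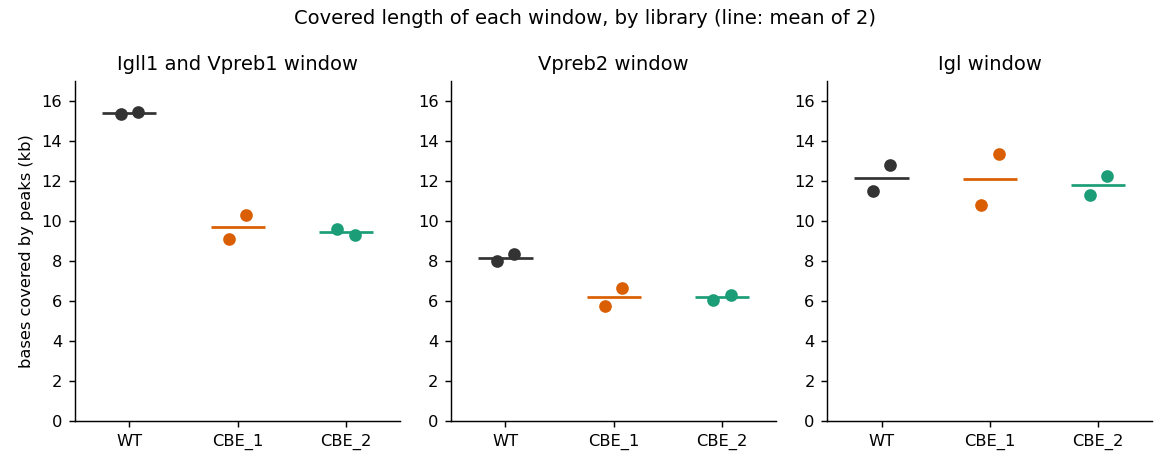
Bases covered by peaks (kb, from 0) in each window, with 1 point per library and a line at the mean of the 2 libraries of a line. In the Igll1 and Vpreb1 window the WT points lie at 15.3 and 15.5 kb and all mutated points at 10.3 kb or below, while the lines overlap in the Igl window.

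The Vpreb2 window showed less difference in rank at its leading regions. The highest ranked, chr16:17968574-17970353, had folds of 18.3 and 19.8 for WT, 26.2 and 20.1 for CBE_1 and 20.0 and 17.6 for CBE_2. Its percentile stayed between 86.8 and 91.5 in all 6 libraries and no line was called against another. Likewise chr16:17978527-17980920, the other broad peak of the window with 2004 to 2394 bp, had percentiles of 76.6 and 74.1 for WT, 78.5 and 79.7 for CBE_1 and 77.7 and 75.9 for CBE_2, without a call. The score differences from WT were 0.12 ± 0.070 in CBE_1 and 0.05 ± 0.070 in CBE_2. A small region, chr16:17973585-17974148, ranked at 21.6 and 18.2 for WT, 2.00 and 21.7 for CBE_1 and 16.1 and 15.1 for CBE_2 and was not called. Its CBE_1 libraries stood far apart.

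Only chr16:17984178-17987244, which joins a pair of peaks, was called between any of the lines in this window. Its fold was 12.4 and 11.9 for WT, 13.4 and 13.2 for CBE_1 and 9.20 and 9.02 for CBE_2, and its percentile 67.3 and 65.1, 72.3 and 74.2, and 56.6 and 57.0. By these values of the higher peak, CBE_1 lay above WT and CBE_2 below it, with no overlap between any of the lines. By the percentile of the whole list, however, CBE_1 (81.2 and 84.3) overlapped WT (85.6 and 83.6), while CBE_2 (76.8 and 77.7) stayed below both. Of the pair, the peak at higher coordinates had folds of 10.1 and 10.1 for WT, 8.44 and 9.38 for CBE_1 and 8.22 and 9.02 for CBE_2. In percentile of the whole list it had 81.3 and 80.2 for WT, 72.0 and 77.2 for CBE_1 and 73.9 and 77.7 for CBE_2. On that measure both mutated lines lay below WT. The percentile among shared regions ranks only the higher peak of the pair, so the lines were not compared on that scale here. The region also covered fewer bases in CBE_1 (1735 and 2120) and CBE_2 (2004 and 2013) than in WT (2978 and 2857). The score of the region was lower in CBE_2 than in CBE_1 (-0.45 ± 0.076, limma adjusted p = 0.00075), which was kept in all 13 alternative settings. The distances to WT were smaller, 0.20 ± 0.076 in CBE_1 (limma adjusted p = 0.048) and -0.25 ± 0.076 in CBE_2 (limma adjusted p = 0.029). The first was lost on leaving out any 1 library, and the second on leaving out either WT or either CBE_2 library. Both were also lost without the variance trend.

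The WT-only regions of this window, chr16:17983049-17983605 and chr16:17983717-17983953, were weak, with folds of 3.14 and 2.97 and of 3.35 and 2.64. With the WT-only region beside Igll1 and Vpreb1 they make 3 of 40, or 7.5%, where 8.68% of all regions were WT-only. Since the WT lists are longer, lists of equal length were also compared, and 1 WT-only region was then left in the windows. A small region at chr16:17981529-17982014 had folds of 5.41 and 5.93 in WT, was missing in CBE_1 replicate 1 and CBE_2 replicate 1, and had folds of 3.44 and 3.01 in the other mutated libraries. Peaks covered 8.0 and 8.35 kb for WT, 5.74 and 6.64 kb for CBE_1 and 6.05 and 6.32 kb for CBE_2. Per Mb of all covered bases, however, WT (99.8 and 111) and CBE_1 (109 and 111) overlapped, and CBE_2 had 87.6 and 90.2.

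In the Igl window the peaks formed clusters separated by long gaps. The largest gap without a peak in any library, 45.7 kb, ran from 19088397 to 19134112. The leading region, chr16:19178907-19180604, had folds of 19.9 and 19.2 for WT, 21.4 and 18.1 for CBE_1 and 19.4 and 18.5 for CBE_2. Its percentile was 91.2 and 88.9 for WT, 84.8 and 86.2 for CBE_1 and 89.7 and 90.6 for CBE_2. CBE_1 was the only line to differ, lower than WT (-0.23 ± 0.076, limma adjusted p = 0.029), a call lost without WT replicate 1, CBE_1 replicate 1 or the variance trend. CBE_2 lay above CBE_1 by 0.23 ± 0.076 (limma adjusted p = 0.034), which was lost without CBE_1 replicate 1, either CBE_2 library or the variance trend.

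**Figure D4:**
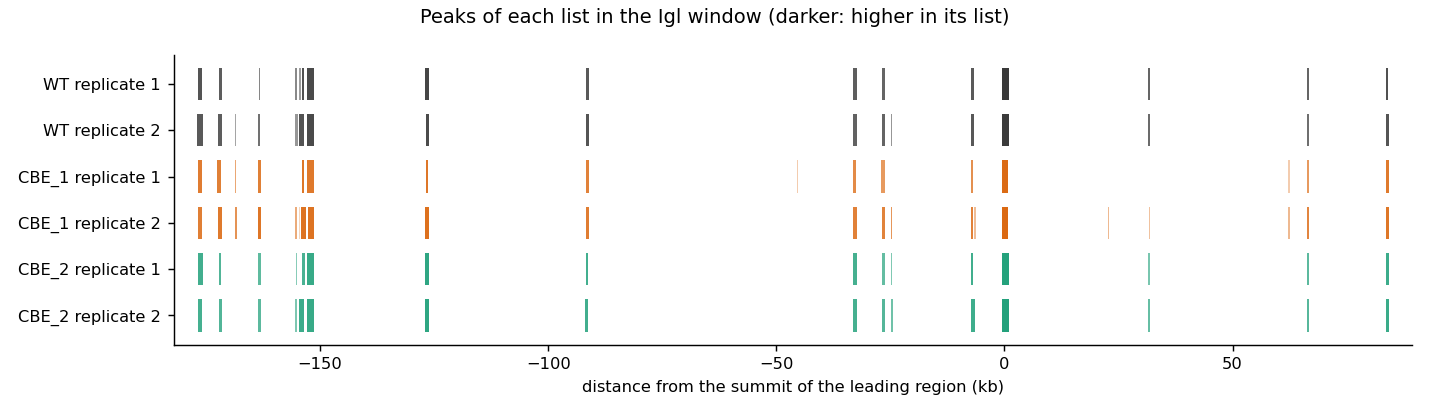
Peaks of each deposited list in the Igl window, 1 line of bars per library, plotted by distance in kb from the summit of the window's leading region, with darker bars for peaks of higher percentile in their list. The positions are nearly the same in the 6 libraries, with a cluster from -177 to -152 kb and a gap of 45.7 kb to the right of the region at -91.4 kb.

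The cluster at the low-coordinate end of the Igl window held the clearest differences, and they were higher in CBE_1. At chr16:19015931-19016542 the fold was 3.79 and 5.16 for WT, 8.75 and 10.9 for CBE_1 and 5.52 and 5.48 for CBE_2. The percentile was 8.55 and 24.3 for WT, 60.8 and 68.1 for CBE_1 and 30.1 and 30.7 for CBE_2. Both CBE_1 libraries stood far above the other 4, and both CBE_2 libraries stood just above WT. The score was higher than WT by 1.41 ± 0.20 in CBE_1 (limma adjusted p = 9.99e-05, kept in all 12 alternatives) and by 0.52 ± 0.20 in CBE_2, which was not called (limma adjusted p = 0.066). CBE_2 lay below CBE_1 (-0.88 ± 0.20, limma adjusted p = 0.0042), lost only without the variance trend (0.053).

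At chr16:19007031-19008046 the percentile was 42.0 and 43.8 for WT, 60.8 and 63.5 for CBE_1 and 41.6 and 40.4 for CBE_2. CBE_1 again stood apart from both other lines, higher than WT by 0.49 ± 0.10 (limma adjusted p = 0.0020), and CBE_2 lay below CBE_1 (-0.54 ± 0.10, limma adjusted p = 0.0016). Both calls were kept in all 13 alternative settings, all of which rank among shared regions. By the percentile of the whole list, CBE_1 (72.8 and 77.5) overlapped WT (72.8 and 72.1), and CBE_2 had 67.8 and 67.8. The CBE_2 difference from WT was -0.05 ± 0.10.

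Another region of the cluster, chr16:19024842-19026435, ranked at 55.3 and 56.0 for WT, 70.8 and 72.6 for CBE_1 and 49.5 and 62.1 for CBE_2. It was higher in CBE_1 than in WT by 0.43 ± 0.10 (limma adjusted p = 0.0044), lost without the variance trend. It was lower in CBE_2 than in CBE_1 (-0.43 ± 0.10, limma adjusted p = 0.0067), lost without CBE_2 replicate 1 or the variance trend. Its direct neighbour chr16:19026581-19028289 did not show this: its percentile stayed between 66.5 and 72.1 in all 6 libraries, with no call. A weak region of the cluster, chr16:19010823-19011292, was present in both CBE_1 libraries with folds of 3.92 and 4.79, in WT replicate 2 with 3.08 and in no CBE_2 library.

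Outside the cluster, 3 Igl regions were called higher in CBE_2. At chr16:19263127-19263757 the percentile was 56.8 and 53.3 for WT, 67.2 and 67.4 for CBE_1 and 63.6 and 65.2 for CBE_2, so that all mutated libraries exceeded WT. The score was higher by 0.32 ± 0.080 in CBE_1 (limma adjusted p = 0.0062, lost without WT replicate 2). In CBE_2 it was higher by 0.24 ± 0.080 (limma adjusted p = 0.041, lost without either WT library, either CBE_2 library or the variance trend). At chr16:19146287-19147254 it was 40.4 and 39.0 for WT, 48.5 and 54.6 for CBE_1 and 53.0 and 51.9 for CBE_2. The differences of 0.30 ± 0.11 and 0.32 ± 0.11 (limma adjusted p = 0.039 and 0.040) were both lost without either WT library and in several other settings. The fold of this region in CBE_1 (6.33 and 7.40) overlapped that in WT (6.92 and 6.70), while CBE_2 had 8.46 and 8.05.

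At chr16:19052569-19053385 the percentile was 71.4 and 66.6 for WT, 70.2 and 75.8 for CBE_1 and 77.7 and 78.5 for CBE_2. Here only CBE_2 was called against WT (0.28 ± 0.081, limma adjusted p = 0.021), lost without WT replicate 2, either CBE_2 library or the variance trend. The other 5 regions present in all libraries had no call between any lines. At chr16:19002681-19003873 the percentile ranged from 49.9 to 64.1, at chr16:19087667-19088397 from 47.2 to 59.9, and at chr16:19172160-19173214 from 42.5 to 60.8. The lowest of them, chr16:19152384-19153383 and chr16:19245788-19246302, ranged from 26.2 to 52.8 and from 26.6 to 49.3, in each case with CBE_1 replicate 2 highest.

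**Figure D5:**
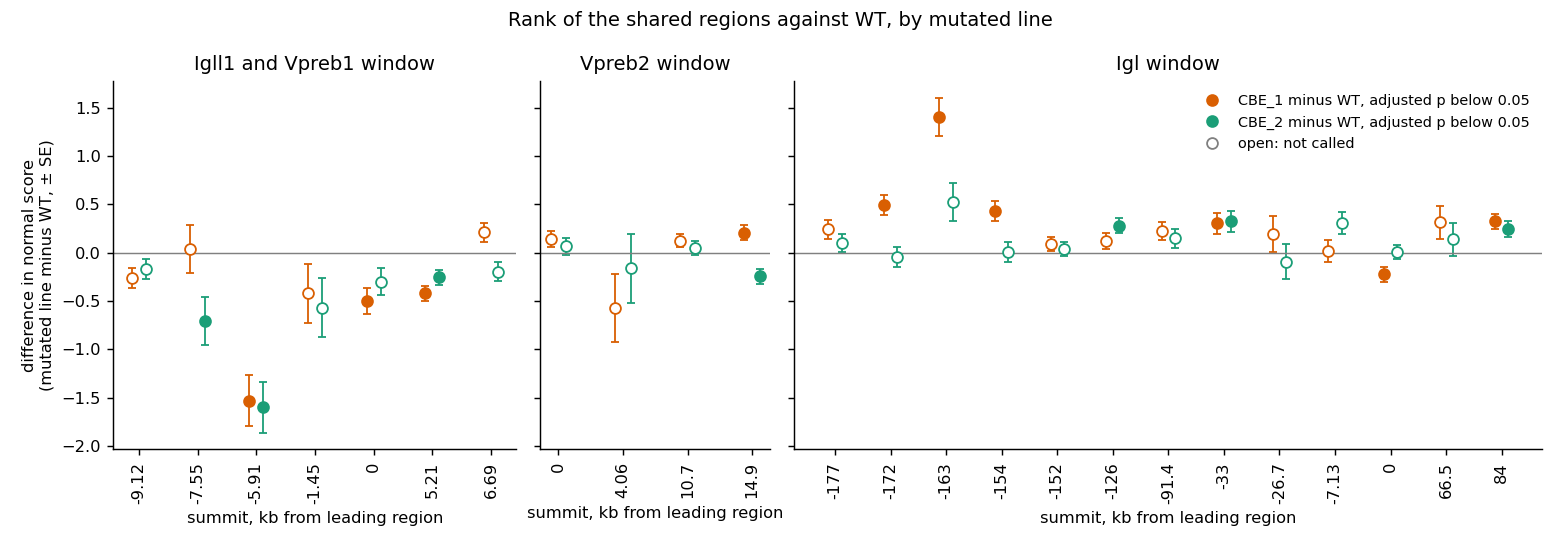
Difference in normal score from WT (vertical axis, units of 1 SD of a standard normal, bars ± SE) for CBE_1 and CBE_2 at every shared region of the 3 windows, ordered by position, with filled points at a limma adjusted p below 0.05. The largest differences are those of -1.53 and -1.60 in the Igll1 and Vpreb1 window and of 1.41 for CBE_1 in the Igl window.

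Over the 13 shared Igl regions, 7 had a percentile above both WT libraries in all 4 mutated libraries and 0 had one below, beside 20.3% and 20.1% of all shared regions. In the Igk window these shares were 37.5% and 3.68%. All of these counts use the percentile among shared regions. By the percentile of the whole list, most of the 7 Igl regions no longer exceeded WT in all 4 mutated libraries. At chr16:19002681-19003873, for example, it was 78.5 and 75.6 for WT but 75.2 and 73.3 for CBE_1. At chr16:19015931-19016542 the order held, with 45.5 and 59.3 for WT, 72.8 and 80.5 for CBE_1 and 60.2 and 61.6 for CBE_2. The median score difference of the Igl regions was 0.24 in CBE_1 and 0.14 in CBE_2. Unlike in the other windows, the covered length did not separate WT from the mutated lines. It was 11.5 and 12.8 kb for WT, 10.8 and 13.4 kb for CBE_1 and 11.3 and 12.2 kb for CBE_2. Per Mb of all covered bases, however, CBE_1 (206 and 224) lay above both WT (144 and 170) and CBE_2 (164 and 175).

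Presence of Igl peaks differed little between lines. The single region found in both libraries of CBE_1 and in none of the other 4, chr16:19241789-19242081, had folds of only 2.87 and 3.02, and makes 1 of 40 members where 0.667% of all regions were CBE_1-only. No member was present in all 4 mutated libraries and absent from WT (1.52% of all regions), and none was missing from CBE_1 alone (5.05%), specific to CBE_2 (3.14%) or missing from CBE_2 alone (0.653%). A region at chr16:19210982-19211563 was in 5 libraries, with folds of 5.95 and 5.71 in WT, 4.05 and 4.83 in CBE_2 and 2.81 in CBE_1 replicate 2. Present in 5 and 4 libraries, chr16:19024101-19024622 and chr16:19154649-19155034 had folds from 3.41 to 4.48. The single peaks of CBE_1 replicate 1 at chr16:19134112-19134342 and of CBE_1 replicate 2 at chr16:19202206-19202490 lay at the 8.55 and 24.8 percentile of their lists.

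Between the mutated lines, 1 of 24 members was called higher and 6 lower in CBE_2 than in CBE_1, beside 15.6% and 15.5% of all shared regions. The 6 lower ones were 3 in the Igl window, 2 in the Igll1 and Vpreb1 window and the Vpreb2 region described above.

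Of all shared regions outside the windows, the one whose 6 percentiles were most like those of the leading Igll1 and Vpreb1 region lay on chromosome X from 159265246 to 159268477, with a mean absolute difference of 0.379 percentile points. The next were on chromosome X from 165756411 to 165759551 (0.60) and on chromosome 8 from 129390652 to 129393356 (0.611). For the leading Vpreb2 region the most alike lay on chromosome 15 from 98592536 to 98594896 (0.655), chromosome 1 from 163663854 to 163666604 (0.758) and chromosome 2 from 158450101 to 158451747 (0.774).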

How the data were processed

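The ATAC-seq peak lists of 6 libraries were used as deposited, 1 per library. The submitters' processing notes name Trimmomatic, Bowtie2, SAMtools and Picard and the build mm9, with no version of a tool. Which peak caller was run, and whether reads were shifted for the transposase, is not given in the sources used here. The score, the fold (a ratio over background) and the −log10 p- and q-values are the authors' own deposited values per peak, and were compared only among peaks of the same list.

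Peaks were merged at 1 bp overlap. Percentiles of the fold were turned into normal scores and fitted with limma 3.58.1 (R 4.3.3), with 1 mean per line and eBayes with trend, and p-values were adjusted over 47767 regions. The merging and the fit were tested on simulated data. Other steps used Python 3.11.15 and scipy 1.17.1. Replicates are numbered in accession order.

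Named regions are those present in all libraries of a window (at most the 10 ranked highest), every region called in a contrast and every region of a line pattern. Remaining members are given for completeness and were chosen after their values were seen. Members, windows and motif lists were chosen with earlier results of these data known. Alternatives were the −log10 p-value as rank measure, untransformed percentiles, no variance trend, lists of equal length, the better 50% of each list, a 50% overlap for merging, leaving out each library and, added after seeing the data, the duplicate tag of the titles as a block. Coordinates are 1-based mm9 positions. Promoter sequences are of GRCm38.p6, a different build, so they were not placed in the peaks. A further marker window is not reported here.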

Additional observations from a re-analysis of the deposited data

Results flagged for a closer look

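Each region here had a tested difference between the mutated lines, CBE_2 minus CBE_1, with a limma adjusted p below 0.05 over all shared regions. Since both lines are set against the same WT libraries, this is also the test of whether their difference from WT differs. In the Igll1 and Vpreb1 window the score difference was -0.75 (limma adjusted p = 0.036) at chr16:16856441-16857574 and -0.41 at chr16:16870195-16872038. The first call was lost without either WT library, CBE_1 replicate 1, CBE_2 replicate 1 or the variance trend, with values from -0.95 to -0.47 on leaving out 1 library. In the Vpreb2 window the difference was -0.45 at chr16:17984178-17987244. In the Igl window it was -0.54 at chr16:19007031-19008046, -0.88 at chr16:19015931-19016542, -0.43 at chr16:19024842-19026435 and 0.23 at chr16:19178907-19180604.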

How the results depend on the processing

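No called difference changed its sign in any setting, but 14 uncalled ones did. Without the variance trend, called members fell from 10 to 5 for CBE_1 against WT, from 7 to 1 for CBE_2 against WT and from 7 to 2 for CBE_2 against CBE_1. Leaving out 1 library gave 7 to 10, 1 to 9 and 3 to 10 calls. The 7 members above WT became 4 in the better 50% of each list, and were 7 to 10 on leaving out 1 library, with 4 to 7 below WT. WT-only members numbered 1 with lists of equal length and 3 to 5 on leaving out 1 library, and CBE_1-only members 2, 0 in the better 50%, and 1 to 2. Leaving out 1 library gave 0 to 2 CBE_1-absent, 0 to 1 CBE_2-only and 0 to 1 CBE_2-absent members. Igl shares in the better 50% were 0.0232% and 0.0264% for WT, 0.0360% for CBE_1 replicate 1 and 0.0275% and 0.0308% for CBE_2. The WT excess of covered length in the Igll1 and Vpreb1 window was 6.76 kb from the widest peaks and 6.47 kb in the better 50%. For Vpreb2 it was 1.99 kb, and 1.43 kb from the widest peaks and 1.25 kb with equal lists. The cause of these changes was not tested. The titles tag 1 library of each line as a duplicate, and a fit with that tag as a replicate block, chosen after seeing the data, gave 9, 8 and 8 calls. Differences between the tagged and the other library correlated across lines at only 0.00897 to 0.0209 over regions, so the tag was not taken to pair them. The read depth behind the lists is unknown, and 2 libraries per line limit the precision.

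The uncalled differences that changed sign, named by the start of their region, had these ranges on leaving out 1 library. For CBE_1 against WT they ran from -0.075 to 0.23 (16856441), -1.15 to 0.13 (17973585), -0.060 to 0.44 (19152384) and -0.13 to 0.16 (19172160). For CBE_2 against WT they ran from -0.029 to 0.15 (17968574), -0.15 to 0.17 (19024842), -0.25 to 0.065 (19152384) and -0.062 to 0.069 (19178907). For CBE_2 against CBE_1 they ran from -0.31 to 0.053 (16857915), -0.49 to 0.10 (16861503), -0.25 to 1.00 (17973585), -0.053 to 0.095 (19146287) and -0.37 to 0.037 (19245788). In the better 50% of each list the values were -0.22 (19152384), -0.13 (19172160) and -0.0046 (19245788) for CBE_1 against WT, -0.025 (19024842) for CBE_2 against WT and 0.16 (19245788) for CBE_2 against CBE_1. The covered length of the Igl window, 0.234 kb more in WT, was -0.050 kb with equal lists.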

Other observations

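The summit positions of the shared regions differed by 7 to 324 bp between libraries, except at chr16:17984178-17987244, which joins a pair of peaks. There the highest peak was the one near 17984624 in 5 libraries and the one at 17986920 in CBE_2 replicate 2, a range of 2298 bp. The smallest range, 7 bp, was that of chr16:19007031-19008046 in the Igl window, and the one of 324 bp that of chr16:16861503-16863147 in the Igll1 and Vpreb1 window.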
